A study of Mus musculus with 20 samples.

Results

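The keratins of simple epithelia, Krt7, Krt8, Krt18 and Krt19, were followed through mouse embryonic stem cells exposed to combinations of developmental signals. The members were taken by gene symbol and are 4 of the 27998 genes in the deposited single-cell tables. The cells were a male line of strain 129P2/OlaHsd, and each well was marked by transfecting short synthetic RNAs (barcodelets) so that the wells could be pooled in 1 droplet library per experiment and sorted out again by sequencing. All cells had left the stem cell medium and spent 24 h in differentiation medium before they met the signals for 24 h. In the germ layer experiment, 32 combinations of 5 signals were given, each signal as an agonist (plus) or an inhibitor (minus): retinoic acid (RA) or CD 2665, GSK3 inhibitor XV or IWR1 for Wnt, Activin A or A8301 for Tgfb, Bmp4 or Dorsomorphin for Bmp, and Fgf2 or UO126 for Fgf. In the mesendoderm experiment, the design held 384 wells with 7 signals, the same 5 with Notch and Shh. In the mixed experiment, 144 wells with 5 signals started either from mesendoderm (64 treated and 8 control wells tested) or from undirected cells (62 treated and 8 control wells tested). Mesendoderm had first been induced for 24 h with Fgf2, Activin A, Dorsomorphin, CD 2665 and GSK3 inhibitor XV, an agent set that itself contains a retinoic acid antagonist and a Bmp inhibitor. The labels repeat this induction, in the same description, on the single-cell samples of every experiment. Only the mixed design names a start state. Whether cells of the germ layer and mesendoderm experiments were induced before the signals is therefore not known here. Control wells received no combination. The compounds behind plus and minus are not named for the mesendoderm and mixed designs in the tables used here. Bulk 3' RNA-seq covered 3 Foxa2GFPplus, 2 Tdgf1GFPplus and 2 Foxa2GFPminus libraries, isolated by flow cytometry on a GFP signal. It also covered 2 libraries each of Barcodelet72h, Barcodelet24h and Untransfected cells. The sorted groups are named for different GFP reporters, Foxa2 and Tdgf1, so Tdgf1GFPplus libraries differ from both Foxa2GFP groups in reporter. No treatment is labelled for the bulk libraries, and a further Foxa2GFPplus library, replicate 2, was not analysed here.

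Keratins are the intermediate filament proteins of epithelial cells, and a filament forms only when a type II keratin pairs with a type I keratin. Krt8 and Krt7 are type II, and Krt18 and Krt19 are type I. Krt8 with Krt18 is the pair that simple, single-layered epithelia make first, and in the mouse embryo it appears in the trophectoderm and then in other early epithelia, while Krt7 and Krt19 add to it in ducts, mesothelium, amnion and other simple linings. The filaments are anchored at desmosomes through plakins such as Dsp and Plec, so that the keratin network links neighbouring cells.

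In GRCm38 with GENCODE vM21, Krt7 lay at chr15:101411043-101430313 on the plus strand, Krt8 at chr15:101996698-102004482 on the minus strand and Krt18 at chr15:102028180-102032027 on the plus strand. Krt8 and Krt18 are neighbours whose 5′ ends face each other across 23697 bases. Krt19 lay elsewhere, at chr11:100140810-100148665 on the minus strand. Krt7 overlapped the antisense gene Gm671 and Krt8 the noncoding gene Gm36026, and Krt8 has a pseudogene, Krt8-ps. No source used here says whether the authors counted by strand, so counts of Krt7 and Krt8 may include or lose reads shared with these genes.

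The promoters of the 3 keratins on chromosome 15 are shown. These genes were called under Bmp in the germ layer experiment and under Wnt from both starts of the mixed experiment. Krt19 was called under Bmp and under Wnt from mesendoderm, but the promoter reference used here gave no entry for it. Each line gives 250 bases 5′ of the RefSeq transcript start (GRCm38.p6), read along the gene, with motif matches on either strand in capitals: Krt7 at chr15:101412153-101412402, plus strand, Krt8 at chr15:102004343-102004592, minus strand, and Krt18 at chr15:102027966-102028215, plus strand.
Krt7: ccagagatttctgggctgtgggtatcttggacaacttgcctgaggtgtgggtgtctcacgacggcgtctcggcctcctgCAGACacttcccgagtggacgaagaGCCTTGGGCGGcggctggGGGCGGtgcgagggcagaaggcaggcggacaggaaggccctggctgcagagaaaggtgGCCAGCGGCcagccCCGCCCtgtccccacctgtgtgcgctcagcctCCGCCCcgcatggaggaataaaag
Krt8: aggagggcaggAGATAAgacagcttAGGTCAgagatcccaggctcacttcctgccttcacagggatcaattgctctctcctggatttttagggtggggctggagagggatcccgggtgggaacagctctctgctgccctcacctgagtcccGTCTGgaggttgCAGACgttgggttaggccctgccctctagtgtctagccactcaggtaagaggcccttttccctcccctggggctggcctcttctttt
Krt18: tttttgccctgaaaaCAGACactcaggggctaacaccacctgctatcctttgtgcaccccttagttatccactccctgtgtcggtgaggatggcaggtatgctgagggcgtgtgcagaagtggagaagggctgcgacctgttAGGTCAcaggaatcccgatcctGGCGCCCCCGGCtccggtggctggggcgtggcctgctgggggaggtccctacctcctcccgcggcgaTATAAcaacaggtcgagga
The motifs searched on both strands were TATAA (TATA box), GGGCGG (Sp and Klf factors), GCCNNNGGC (Tfap2), AGATAA (factors of the Gata family), TGANTCA (AP-1), GTCTG and GGCGCC (Smad), CTTTGA (Tcf and Lef), AGGTCA (nuclear receptors), ACCGGT (Grhl) and CCGGAAG (Ets). The Krt7 window held 4 GGGCGG, 2 GCCNNNGGC, of which 1 overlapped a GGGCGG, and 1 GTCTG. The Krt8 window held 2 GTCTG, 1 AGATAA and 1 AGGTCA. The Krt18 window held TATAA from 19 to 15 bases before the RefSeq start, a match to GTCTG, a match to AGGTCA, and a GCCNNNGGC that overlapped a GGCGCC match. These RefSeq starts lie inside the GENCODE gene spans given above. All of the Krt7 window and part of the Krt8 and Krt18 windows, with the TATAA of Krt18, therefore fall within those spans. The Smad letters GTCTG were the only motif of this set found in all 3 windows, and 42.2% of 32851 promoter windows of the same length held it. The shares for the other motifs found were 32.7% for GGGCGG, 22.8% for TATAA, 14% for AGGTCA, 13.7% for GCCNNNGGC, 9.99% for AGATAA and 9.59% for GGCGCC. Base composition also differed, with a GC content of 66% for Krt7, 58% for Krt8 and 60.4% for Krt18.

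Cells were given to wells by the deposited assignments, which kept 4350 of 8421 germ layer cells (51.7%), 2899 of 12781 mesendoderm cells (22.7%) and 4869 of 5944 mixed cells (81.9%). UMI counts were summed over the cells of each well, called a population here, and populations with at least 5 cells were tested. That left 32 germ layer populations of 991630 to 3816595 UMIs, 300 mesendoderm wells of 27701 to 332644 UMIs and 142 mixed wells of 101140 to 2119355 UMIs. The 3 libraries shared 151 cell barcodes (germ layer and mesendoderm), 64 (germ layer and mixed) and 111 (mesendoderm and mixed). A sum over a well cannot tell fewer keratin-expressing cells from less keratin RNA per cell.

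The 4 genes held 97.4% of all keratin UMIs in the germ layer experiment, 94.2% in the mesendoderm experiment and 91% in the mixed experiment, over 51 keratin genes in the table. Krt10, a keratin of stratified skin, came next with 1.61%, 4.19% and 5.12%. In germ layer cells the UMIs numbered 37942 for Krt8, 33438 for Krt18, 6506 for Krt19 and 1327 for Krt7. In mesendoderm cells they numbered 7761 for Krt8, 6307 for Krt18, 1432 for Krt19 and 149 for Krt7. In mixed cells they numbered 15220 for Krt8, 14430 for Krt18, 1945 for Krt19 and 935 for Krt7. Krt7 was therefore the member read with the fewest molecules in every experiment. Levels below are UMIs scaled to 1000000 per population (CPM), and since counts from 3′ ends are not scaled by length, levels were compared between samples and not between genes.

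Bmp was the signal under which all 4 keratins were higher, plus over minus, in the germ layer experiment. Every population received either Bmp4 or Dorsomorphin, so a rise with the agonist cannot be told from a fall with the inhibitor. For every signal here and below, raised and lowered mean plus against minus. Krt8 ranged from 509.9 to 1176 CPM in the 16 Bmp plus populations, with a median of 785.2, against 145.6 to 406.4 CPM and a median of 280.9 in the 16 Bmp minus populations. The type I partner Krt18 ranged from 441.6 to 1019 CPM in Bmp plus populations (median 690.1), against 137.5 to 299.8 CPM in Bmp minus populations (median 220.9). For both genes every Bmp plus population lay above every Bmp minus population, which was true of 26 of 10614 genes tested (0.245%). Krt19 ranged from 60.17 to 159.2 CPM in Bmp plus populations (median 108), against 26.88 to 158.6 CPM in Bmp minus populations (median 56.72). Krt7 ranged from 5.742 to 47.52 CPM in Bmp plus populations (median 23.87), against 2.017 to 36.5 CPM in Bmp minus populations (median 8.538). The groups overlapped for Krt19 and Krt7.

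In edgeR's quasi-likelihood test with Benjamini-Hochberg adjustment over all genes, where a gene was called at an adjusted p under 0.05, Bmp called all 4 members higher while it called 43.1% of 10614 genes in either direction and 21.6% as higher. The log2 change was 1.69 ± 0.11 (SE) for Krt18 (adjusted p = 1.4e-14) and 1.47 ± 0.10 for Krt8 (adjusted p = 4.59e-14). It was 1.05 ± 0.21 for Krt7 (adjusted p = 0.000114) and 0.73 ± 0.15 for Krt19 (adjusted p = 0.000187). When each Bmp plus population was set against the Bmp minus population with the same other 4 signals, Krt8 and Krt18 were higher in 16 of 16 pairs, with median ratios of 2.92 and 3.461. Krt19 and Krt7 were higher in 14 of 16 pairs, with median ratios of 1.715 and 2.514. In the plot of germ layer levels the separation of Krt8 and Krt18 can be seen beside the overlap of Krt19 and Krt7.

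**Figure D1:**
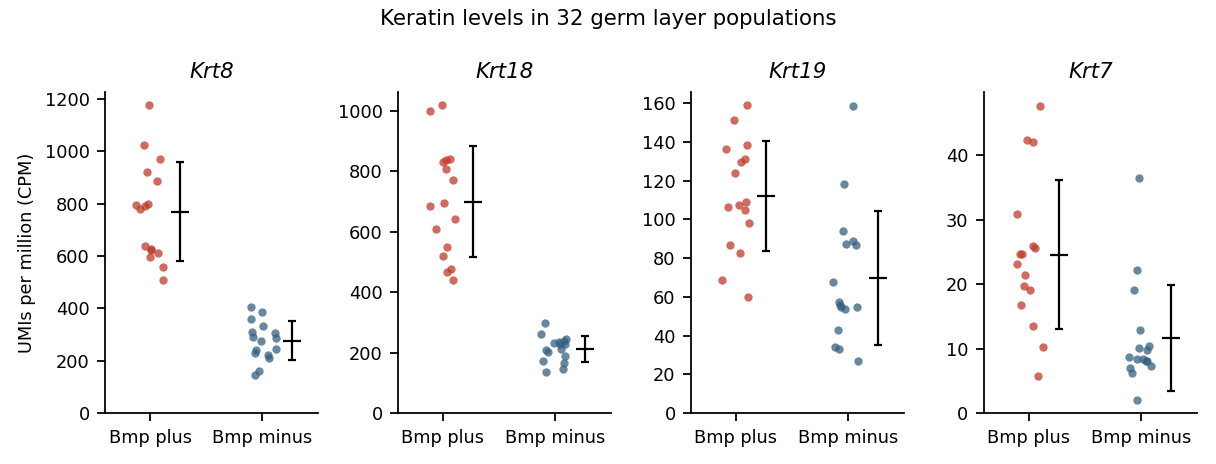
Level of each keratin (CPM) in the 32 germ layer populations, with 16 Bmp plus populations on the left and 16 Bmp minus populations on the right of each panel; points are populations and bars are mean ± SD. Krt8 and Krt18 do not overlap between the groups, while the lowest Bmp plus and highest Bmp minus values of Krt19 (60.17 and 158.6) and of Krt7 (5.742 and 36.5) cross.

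Among the other germ layer signals, RA changed 2 members. RA raised Krt7, which ranged from 7.073 to 47.52 CPM in RA plus populations (median 20.25), against 2.017 to 30.92 CPM in RA minus populations (median 10.14). It lowered Krt19, which ranged from 26.88 to 136.3 CPM in RA plus populations (median 86.65), against 53.73 to 159.2 CPM in RA minus populations (median 100.5). Both pairs of groups overlapped. The log2 changes were 0.62 ± 0.21 (SE) for Krt7 (edgeR, adjusted p = 0.0249) and -0.43 ± 0.15 for Krt19 (adjusted p = 0.0327), where RA called 27.7% of genes. Krt8 and Krt18 were not called under RA, with log2 changes of -0.21 ± 0.10 and -0.01 ± 0.10. Wnt, Tgfb and Fgf called none of the 4 members in edgeR and none in DESeq2, while 5 of these 12 tests had an unadjusted p under 0.05; they called 23.9%, 7.02% and 7.93% of all genes. With products of signal pairs in the model, 14 of the 20 member tests were called in place of 6, and Krt8 was then called lower under RA (adjusted p = 0.00631), Wnt (0.0142) and Tgfb (0.0427) and higher under Fgf (0.0052).

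The response to Bmp depended on a second signal for 3 members. These tests asked, in 11410 genes, whether the change with Bmp differed between the plus and minus state of another signal, and 3 of 40 member tests were called, where 1.42% of all gene tests of pairs were called. Krt7 averaged 19.65 ± 11.28 CPM with Tgfb plus and Bmp plus, 15.3 ± 10.16 with Tgfb plus and Bmp minus, 29.47 ± 10.13 with Tgfb minus and Bmp plus, and 7.873 ± 3.12 with both minus (SD, n = 8 each). Krt18 averaged 576.3 ± 124.3, 215.8 ± 52.42, 823.4 ± 145.5 and 210.4 ± 34.6 CPM in the same 4 groups (SD, n = 8 each). The Bmp increase of both genes was thus smaller under Activin A than under the Tgfb inhibitor, by a log2 difference of -1.47 ± 0.32 for Krt7 (edgeR, adjusted p = 0.00668) and -0.59 ± 0.14 for Krt18 (adjusted p = 0.0153), where 3.01% of genes were called. Krt19 averaged 106.2 ± 27.74 CPM with Wnt plus and Bmp plus, 86.55 ± 39.47 with Wnt plus and Bmp minus, 117.9 ± 29.99 with Wnt minus and Bmp plus, and 52.83 ± 19.07 with both minus (SD, n = 8 each). Its Bmp increase was smaller under the Wnt agonist by -0.89 ± 0.20 (adjusted p = 0.00625), where 3.87% of genes were called. DESeq2 kept the Krt7 call and lost those of Krt19 (adjusted p = 0.0681) and Krt18 (adjusted p = 0.0755).

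**Figure D2:**
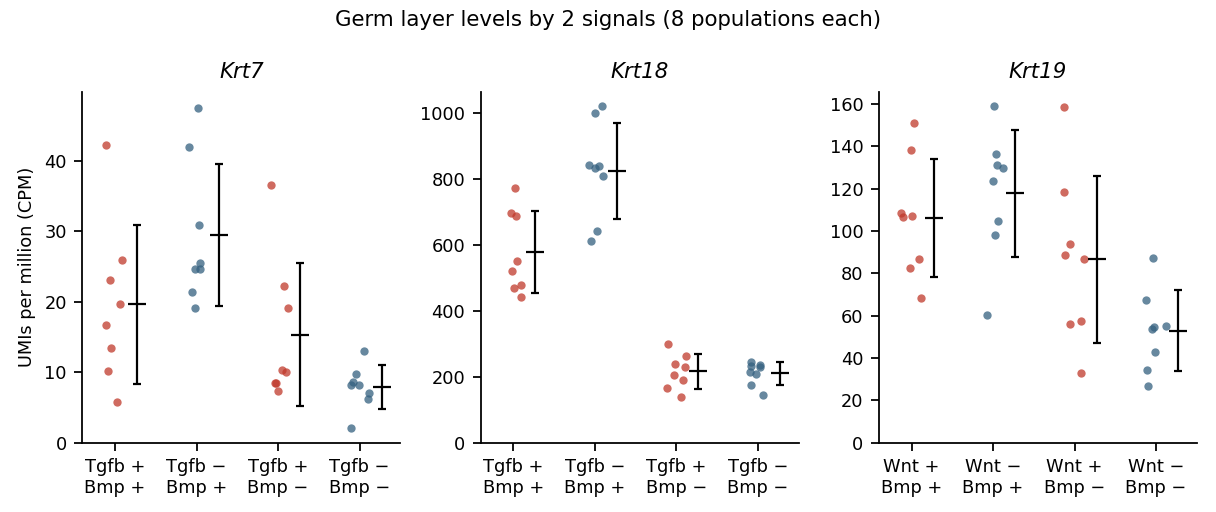
Level (CPM) of Krt7 and Krt18 by Tgfb and Bmp and of Krt19 by Wnt and Bmp in the germ layer experiment, 8 populations per group; points are populations and bars are mean ± SD. The gap between Bmp plus and Bmp minus is widest where the second signal is minus (29.47 against 7.873 for Krt7, 823.4 against 210.4 for Krt18 and 117.9 against 52.83 for Krt19).

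The extreme populations differed in Bmp. The highest Krt8, 1176 CPM, was in the population with Bmp plus and the other 4 signals minus, and the highest Krt18, 1019 CPM, was in that with RA, Bmp and Fgf plus and Wnt and Tgfb minus. That population also held the highest Krt7, 47.52 CPM. The lowest Krt8, 145.6 CPM, was in the population with RA and Wnt plus and the other 3 signals minus. The highest 5 populations for Krt8 and for Krt18 all had Bmp plus and Tgfb minus.

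The share of cells with a UMI moved in the same direction. With each cell thinned to 5000 UMIs, Krt8 was found in 80.97% of Bmp plus cells (95% Wilson interval 79.24 to 82.59) and 47.83% of Bmp minus cells (45.69 to 49.98). Krt18 was found in 79.35% of Bmp plus and 43.21% of Bmp minus cells, Krt19 in 32.89% and 19.68%, and Krt7 in 8.306% and 4.09%, in the same order. Thinning left out 81 Bmp plus and 84 Bmp minus cells, and before it the shares for Krt8 were 90.08% and 71.51% at median depths of 15779 and 14889 UMIs per cell. No population here is known to lack simple keratins, so a background share from free RNA could not be given, and even the population with the lowest Krt8 share held a UMI in 29.52% of its thinned cells. The intervals cover counting error only. Krt8 and Krt18 were mostly found in the same germ layer cells: 76.07% of cells with Krt8 also held Krt18, against 34.75% of cells without Krt8. Of the cells with Krt7, 88.08% also held Krt8, against 62.96% of cells without it, and 85% held Krt18, against 59.85%. These shares of joint detection pool Bmp plus and Bmp minus cells, which differ in the share that holds each of these keratins.

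Across the germ layer populations Krt8 and Krt18 varied together beyond the split by Bmp. Pearson's r on log2(CPM + 5) was 0.84 over the 16 Bmp plus populations and 0.78 over the 16 Bmp minus populations. It was 0.78 and 0.33 for Krt7 with Krt18, 0.63 and 0.56 for Krt8 with Krt19, and 0.04 and -0.18 for Krt7 with Krt19. These values describe populations that share 1 library and each other's signal settings, and carry no test. Krt8 made up 54.23% ± 4.401 (SD, n = 32) of the summed Krt8 and Krt18 UMIs, between 46.56% and 62.74%.

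Ranked over all 32 populations, among 7450 genes with a mean of at least 10 CPM, the genes with patterns most like Krt8 were Krt18 and then Ahnak, Gata3, Hand1 and Peg10, with r from 0.9253 to 0.8918 for the last 4. Among those most like Krt18 were Krt8, Tbx3, Spint1 and Gata3. Gata3, Hand1 and Tbx3 encode transcription factors, and Spint1 a membrane-bound protease inhibitor of epithelia. For Krt19 they were Plac8 (r = 0.8153), Cstb, Arid3b, Vwa5a and S100a11, and for Krt7 Fkbp1b (r = 0.8084), Sort1, Wfdc2, Aktip and Tjp1. Within Bmp plus and Bmp minus populations, r with Krt18 was 0.49 and 0.26 for Tbx3, 0.54 and 0.60 for Spint1 and 0.63 and 0.21 for Gata3, and r of Hand1 with Krt8 was 0.81 and 0.68. The order depended in part on the measure: ranked by Spearman's rho, 3 of the 5 genes were shared for Krt7, 3 for Krt8, 2 for Krt18 and 2 for Krt19. Over the 300 mesendoderm and 142 mixed wells, r was 0.8033 and 0.9119 for Krt8 with Krt18, but -0.01574 and 0.2054 for Spint1 with Krt18, 0.0237 and 0.1211 for Plac8 with Krt19, and 0.04779 and 0.2006 for Fkbp1b with Krt7.

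Genes of epithelial architecture moved with the keratins under Bmp in the germ layer experiment, where 21.6% of all genes were called higher. Of 22 listed junction genes, 21 were tested, 19 were called higher and 0 lower, with a median log2 change of 0.81 where the median of all genes was 0.004. Among them were Crb3, an apical polarity protein, at 1.33 ± 0.08 (SE), Cldn7, a claudin, at 1.30 ± 0.11, Spint1 at 1.03 ± 0.07 and Cdh1, E-cadherin, at 0.83 ± 0.08. Of 17 listed desmosome and plakin genes that hold keratin filaments, 12 were tested and 10 were called higher, including the desmosomal cadherins Dsg2 (1.26 ± 0.13) and Dsc2 (1.20 ± 0.15), Jup (0.79 ± 0.07), Plec (0.61 ± 0.09) and Dsp (0.47 ± 0.11). Tchp, a keratin-binding protein, was not called (-0.10 ± 0.12). Other intermediate filament genes moved the other way: of 10 tested, 7 were called lower, where 21.5% of all genes were, among them the neuronal filament genes Ina (-0.94 ± 0.11) and Nefm (-0.90 ± 0.17) and the mesenchymal Vim (-0.48 ± 0.15), while the lamin gene Lmna was the 1 called higher (0.77 ± 0.12). Krt10 was the 1 of 16 other keratins that could be tested and was not called (0.12 ± 0.08). Of 19 tested regulators of epithelial genes, 12 were called higher, including Tfap2a (3.10 ± 0.17), Gata3 (2.24 ± 0.11) and Grhl2 (1.41 ± 0.16), and 3 lower, including Zeb2, a repressor of epithelial genes (-1.52 ± 0.17).

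Markers of several cell types moved with Bmp at the same time, where 21.6% of all 10614 genes tested were called higher and 2281 genes lower. Summed surface ectoderm markers held 229.3 to 608.2 CPM in Bmp plus populations and 62.44 to 296.5 CPM in Bmp minus populations, with 9 of 9 tested genes called higher and 13 listed. Markers of lateral and extraembryonic mesoderm held 574.4 to 1137 CPM in Bmp plus populations and 108.5 to 355.3 CPM in Bmp minus populations, with 7 of 7 tested genes called higher and 11 listed. That list holds Ahnak, Hand1 and Tbx3, which are also among the genes most like Krt8 or Krt18 above. All lists were chosen with earlier results of these data known, so these counts are no independent support. Trophoblast markers held 146.9 to 457.9 CPM in Bmp plus populations and 71.68 to 333.4 CPM in Bmp minus populations, with 5 of 9 tested called higher, and Prl3d1 and Prl2c2, which define trophoblast giant cells, were at 0 UMIs. Pluripotency markers held 162 to 1312 CPM in Bmp plus populations and 305.3 to 1543 CPM in Bmp minus populations, with 7 of 7 tested called lower. The part of these cell types in the keratin change was not tested.

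In the mesendoderm experiment, Wnt lowered Krt8 and Krt18 and Bmp raised them. Of 2328 genes that passed the filter on low counts for the model of single signals, Krt8 and Krt18 were 2 of the 4 members. Krt19 and Krt7 did not pass it. Krt8 had a median of 103.3 CPM in 148 Wnt plus wells, with the highest at 369.7, against a median of 253.9 and a highest value of 1929 CPM in 152 Wnt minus wells. Krt18 had a median of 84.12 CPM in Wnt plus wells, with the highest at 400.7, against a median of 215.5 and a highest value of 1389 CPM in Wnt minus wells. The ranges overlapped from near 0 upward, and wells of this experiment held a median of 7 cells. The log2 change with Wnt was -1.46 ± 0.10 (SE) for Krt8 (edgeR, adjusted p = 2.74e-32) and -1.35 ± 0.10 for Krt18 (adjusted p = 3.73e-29), where 39.6% of genes were called. With Bmp, Krt8 had a median of 206.2 CPM (22.35 to 1929) in 157 Bmp plus wells and 123.8 CPM (0 to 935.8) in 143 Bmp minus wells. Krt18 had a median of 155.8 CPM (14.86 to 1389) in Bmp plus wells and 90.54 CPM (0 to 775.9) in Bmp minus wells. The log2 change was 0.86 ± 0.10 for Krt18 (adjusted p = 2.8e-13) and 0.63 ± 0.10 for Krt8 (adjusted p = 1.05e-07), where 29.3% of genes were called. With the 98 wells of at least 10 cells alone, the Bmp change of Krt8 was 0.43 and was no longer called (adjusted p = 0.0838).

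RA lowered Krt8 by a log2 change of -0.34 ± 0.10 (edgeR, adjusted p = 0.00845), where 21.9% of genes were called, while the change of Krt18 was 0.03 ± 0.10. That Krt8 call was lost in DESeq2 (adjusted p = 0.0559), in wells of at least 10 cells (-0.03, adjusted p = 0.945) and with products of signals in the model (adjusted p = 0.36). Tgfb, Fgf, Notch and Shh called neither gene in edgeR or DESeq2, with 2 of 8 tests at an unadjusted p under 0.05, and called 10.1%, 9.28%, 1.16% and 0.043% of all genes. Krt8 under Fgf (0.29 ± 0.10, adjusted p = 0.0612) was called higher with total UMIs alone (adjusted p = 0.0437), no filter (0.0316) and products of signals in the model (0.0333). Without the filter, the changes of Krt19 and Krt7 with single signals could be tested. Krt19 was at 0 in 46 of 148 Wnt plus wells and 13 of 152 Wnt minus wells, and its log2 change with Wnt was -1.30 (adjusted p = 2.04e-14). That fit called 2630 genes under Wnt in place of 921. Over all experiments, dropping the filter newly called 23 member results of genes that had passed it, so this p-value is not comparable with the filtered ones. Krt7 was at 0 in 210 of 300 wells, which leaves its level near the limit of detection.

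The Bmp increase of Krt8 and Krt18 was seen in mesendoderm wells where Wnt was minus. Krt18 averaged 98.24 ± 59.54 CPM with both plus (n = 80), 94.06 ± 71.5 with Wnt plus and Bmp minus (n = 68), 356.2 ± 197.1 with Wnt minus and Bmp plus (n = 77) and 138.4 ± 114.9 with both minus (SD, n = 75). Krt8 averaged 114.3 ± 69.89, 109.2 ± 76.16, 425 ± 278.8 and 201.8 ± 171 CPM in the same 4 groups. The difference in the Bmp change between Wnt plus and Wnt minus wells was -1.09 ± 0.19 (SE) on the log2 scale for Krt18 (edgeR, adjusted p = 3.71e-06) and -0.88 ± 0.20 for Krt8 (adjusted p = 0.000495), where 10.4% of 3082 genes were called. A further 4 of the 63 member tests of signal pairs were called, where 0.822% of all gene tests of pairs were. Krt19 passed the filter for the model of signal pairs and was tested in it, while Krt7 was not. The Wnt decrease was smaller with RA plus for Krt18 (0.77 ± 0.19, adjusted p = 0.00442) and Krt19 (1.15 ± 0.31, adjusted p = 0.0134), where 3.6% of genes were called. It was smaller with Tgfb plus for Krt8 (0.82 ± 0.20, adjusted p = 0.0219; 0.292% called), and RA and Tgfb together changed Krt18 (0.92 ± 0.19, adjusted p = 0.00279; 0.779% called). None of these 6 calls remained in the 98 wells of at least 10 cells, where they kept their direction with log2 differences from -0.56 to 1.20 and adjusted p from 0.119 to 0.826.

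**Figure D3:**
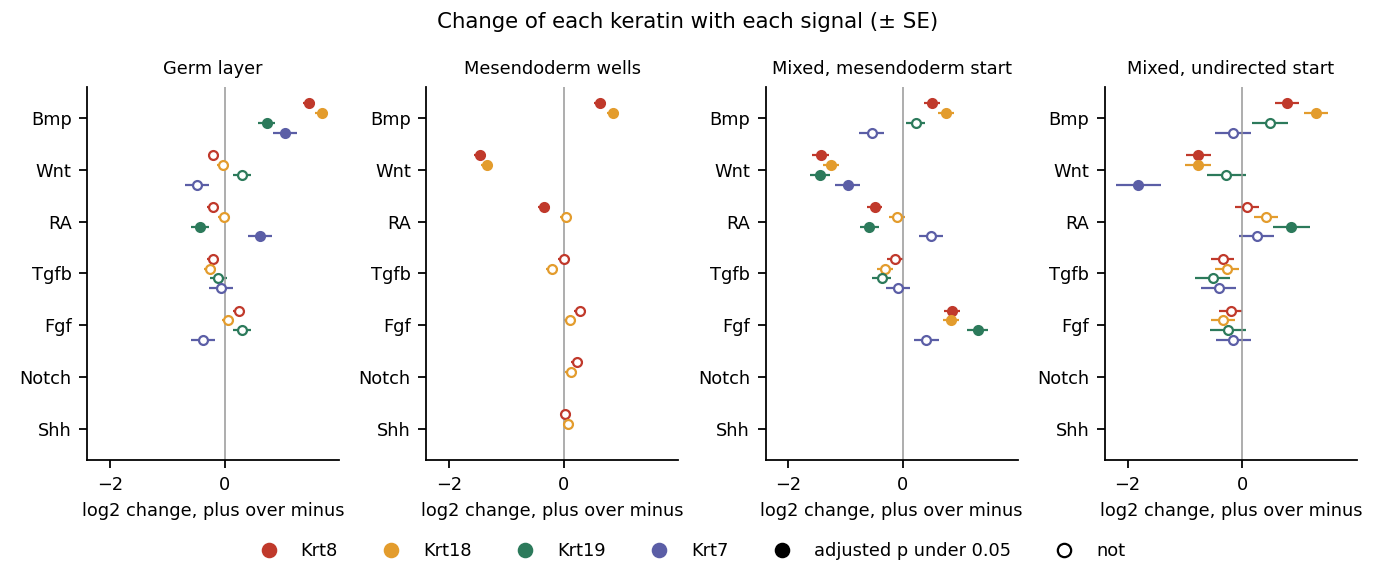
Log2 change (± SE, edgeR) of each keratin with each signal, plus over minus, in the germ layer populations, the mesendoderm wells, and the mixed wells by start; filled points had an adjusted p under 0.05. Krt19 and Krt7 were not tested for single signals in the mesendoderm wells and Notch and Shh were given there alone. Bmp lies to the right of 0 for Krt8 and Krt18 in all 4 panels (from 0.51 to 1.69), and Wnt lies to the left of 0 in the mesendoderm and mixed wells (from -1.46 to -0.77).

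In the mixed experiment, cells that started from mesendoderm held more of all 4 keratins. Krt8 ranged from 27.42 to 775.9 CPM in 64 treated mesendoderm-start wells (median 112.5), against 3.306 to 245.6 CPM in 62 treated undirected-start wells (median 53.74). Krt18 ranged from 24.34 to 751.4 CPM in mesendoderm-start wells (median 128), against 4.778 to 327.1 CPM in undirected-start wells (median 49.58). Krt19 had medians of 15.58 and 7.172 CPM and Krt7 of 6.797 and 4.667 CPM, in the same order. The ranges overlapped for every member. The log2 difference, mesendoderm over undirected start, was 1.27 ± 0.13 (SE) for Krt18 (edgeR, adjusted p = 6.26e-15), 1.19 ± 0.13 for Krt8 (adjusted p = 2.73e-14), 1.18 ± 0.19 for Krt19 (adjusted p = 1.53e-07) and 0.67 ± 0.24 for Krt7 (adjusted p = 0.0242), where 25.6% of 8791 genes were called. Over 31 matched combinations, the mesendoderm start was higher in 29 for Krt18, 27 for Krt8 and 24 each for Krt19 and Krt7.

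The difference was already present in wells that received no combination. Krt8 lay between 86.93 and 192.7 CPM in 8 mesendoderm-start control wells (median 142.9), against 29.57 to 84.51 CPM in 8 undirected-start control wells (median 43.59), with no overlap, as for 1.11% of genes. Krt18 lay between 49.26 and 176.2 CPM in mesendoderm-start control wells (median 120.1), against 23.99 to 63.03 CPM in undirected-start control wells (median 48.49), with overlap. The log2 difference was 1.49 ± 0.31 (SE) for Krt8 (edgeR, adjusted p = 0.000212), 1.39 ± 0.33 for Krt18 (adjusted p = 0.00125) and 1.69 ± 0.43 for Krt19 (adjusted p = 0.00333), where 8.57% of genes were called. Krt7 was not called (1.20 ± 0.47, adjusted p = 0.099). Treated against control wells called 0 of 8 member tests in edgeR, with 0 at an unadjusted p under 0.05 and 0 in DESeq2, where 15.5% of genes were called in mesendoderm-start and 19.3% in undirected-start wells. Without the filter on low counts 3 of these 8 tests were called. The averages over treated wells hide a wide spread: the SD of log2(CPM + 5) of Krt8 over mesendoderm-start treated wells was 1.128, against 0.495 between wells of the same combination.

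Epithelial genes did not move as a block with the start. Of 16 tested junction genes, 0 were called higher and 3 lower in treated mesendoderm-start wells, namely Rab25 (-0.76 ± 0.18), Epcam (-0.35 ± 0.05) and Cdh1 (-0.24 ± 0.06), with a list median of -0.09, where 14.2% of all genes were called higher and 11.4% lower. Of 12 tested desmosome and plakin genes, 3 were called higher, including Dsp (0.82 ± 0.11) and Dsg2 (0.44 ± 0.09), and Pkp2 lower (-0.28 ± 0.09). Vim was called higher (0.88 ± 0.10) and Ina lower (-0.82 ± 0.09) among the other intermediate filament genes. Markers of lateral and extraembryonic mesoderm moved with the start, with 5 of 6 tested genes called higher and summed levels of 60.89 to 722.4 CPM in mesendoderm-start and 21.15 to 507.9 CPM in undirected-start treated wells. Their part in the keratin difference was not tested.

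Wnt lowered the keratins from both starts of the mixed experiment. In mesendoderm-start wells Krt8 ranged from 27.42 to 206.7 CPM with Wnt plus (median 81.33, n = 32), against 57.58 to 775.9 CPM with Wnt minus (median 228.9, n = 32). Krt18 ranged from 24.34 to 185.6 CPM with Wnt plus (median 100.2), against 50.59 to 751.4 CPM with Wnt minus (median 228.9), and Krt19 from 0 to 30.63 CPM (median 11.39), against 5.476 to 107.1 CPM (median 34.75). Wnt plus wells lay in the lower part of a shared range for each gene. The log2 changes were -1.45 ± 0.17 (SE) for Krt19 (edgeR, adjusted p = 6.46e-13), -1.44 ± 0.14 for Krt8 (adjusted p = 3.99e-17), -1.25 ± 0.14 for Krt18 (adjusted p = 1.07e-13) and -0.97 ± 0.22 for Krt7 (adjusted p = 0.000106), where 41.1% of genes were called. In undirected-start wells Krt8 had a median of 38.01 CPM with Wnt plus (3.306 to 126.3, n = 30), against 75.25 CPM with Wnt minus (27.93 to 245.6, n = 32). The log2 changes there were -0.77 ± 0.22 for Krt8 (adjusted p = 0.00258), -0.77 ± 0.22 for Krt18 (adjusted p = 0.0037) and -1.81 ± 0.39 for Krt7 (adjusted p = 5.13e-05), where 36.1% of genes were called; Krt19 was not called (-0.27 ± 0.34). Scaling by total UMIs alone shifted the median of all genes by -0.14 in mesendoderm-start wells and by -0.15 in undirected-start wells, which is small beside these changes. The difference in the Wnt change between starts was called for none of the 4 in edgeR or DESeq2, with 2 at an unadjusted p under 0.05, where 7.77% of genes were called, and was nearest for Krt19 (-1.18 ± 0.41, adjusted p = 0.0544), which passed in the 134 wells of at least 10 cells (adjusted p = 0.0257).

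Under Wnt from the mesendoderm start, epithelial genes moved in both directions. Of 16 tested junction genes, 7 were called lower, including Cldn4 (-1.43 ± 0.14), Cdh1 (-0.56 ± 0.08) and Tjp1 (-0.45 ± 0.06), and 3 higher, including the membrane protease St14 (0.44 ± 0.09), where 21.2% of all genes were called lower and 19.9% higher. Of 12 tested desmosome and plakin genes, 6 were called lower, including Jup (-0.67 ± 0.07) and Plec (-0.39 ± 0.10), and Dsg2 was called higher (0.54 ± 0.10). Trophoblast markers moved with Wnt, with 7 of 8 tested genes called lower and summed levels of 77.35 to 335.9 CPM in Wnt plus and 110.6 to 1015 CPM in Wnt minus wells; 2 of the 13 listed markers were at 0 UMIs. Their part in the keratin change was not tested.

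Bmp raised the Krt8 and Krt18 pair from both starts, and the other members were not called. In mesendoderm-start wells Krt18 had a median of 154.1 CPM with Bmp plus (24.34 to 751.4, n = 32), against 110.9 CPM with Bmp minus (25.68 to 416.3, n = 32). In undirected-start wells Krt18 had a median of 83.52 CPM with Bmp plus (9.492 to 327.1, n = 30), against 34.92 CPM with Bmp minus (4.778 to 127.3, n = 32). The groups overlapped in both. The log2 changes of Krt18 were 0.75 ± 0.14 (SE; edgeR, adjusted p = 2.32e-05) from mesendoderm and 1.29 ± 0.21 (adjusted p = 1.64e-06) from undirected cells. Those of Krt8 were 0.51 ± 0.14 (adjusted p = 0.00587) and 0.78 ± 0.20 (adjusted p = 0.00606), where 10.7% and 7.81% of genes were called. Krt7 changed by -0.55 ± 0.22 (adjusted p = 0.0866) from mesendoderm, not called, against the called increase in the germ layer experiment; the 2 experiments were not tested against each other. The difference between starts in the Bmp change was called for none of the 4 members, where 17 genes or 0.193% were called, and that in the Tgfb change for none, where 0% were called; of these 8 tests 0 were called in DESeq2 and 1 had an unadjusted p under 0.05, Krt18 under Bmp (-0.54 ± 0.25).

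Fgf raised the keratins from the mesendoderm start, and here the difference between starts was itself called. In mesendoderm-start wells Krt8 ranged from 53.59 to 775.9 CPM with Fgf plus (median 182.4, n = 32), against 27.42 to 567.9 CPM with Fgf minus (median 83.5, n = 32). Krt19 ranged from 7.267 to 107.1 CPM with Fgf plus (median 24.2), against 0 to 53.46 CPM with Fgf minus (median 8.192). In undirected-start wells Krt8 had a median of 56.4 CPM with Fgf plus (17.5 to 209.8, n = 32), against 48.91 CPM with Fgf minus (3.306 to 245.6, n = 30). All these ranges overlapped, most fully in the undirected-start wells. From mesendoderm the log2 changes were 1.30 ± 0.18 (SE) for Krt19 (edgeR, adjusted p = 2.76e-09), 0.85 ± 0.14 for Krt8 (adjusted p = 1.04e-06) and 0.84 ± 0.14 for Krt18 (adjusted p = 2.13e-06), where 13.6% of genes were called, and Krt7 was not called (0.41 ± 0.22). From undirected cells 0 of 4 were called in edgeR, with 0 at an unadjusted p under 0.05 and 0 in DESeq2, and the values ran from -0.34 to -0.16, where 13.3% of genes were called. The change from mesendoderm exceeded that from undirected cells by 1.55 ± 0.37 for Krt19 (adjusted p = 0.00985), 1.17 ± 0.25 for Krt18 (adjusted p = 0.00281) and 1.05 ± 0.25 for Krt8 (adjusted p = 0.00751), where 1.47% of genes were called.

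Partners of the filaments moved with them under Fgf from the mesendoderm start. Of 12 tested desmosome and plakin genes, 5 were called higher and 0 lower, including Plec (1.03 ± 0.10), Perp, a desmosomal membrane protein (0.76 ± 0.09), and Dsp (0.40 ± 0.11). Of 16 tested junction genes, 8 were called higher and 0 lower, including Cldn4 (0.56 ± 0.14), Cdh1 (0.36 ± 0.08) and Tjp1 (0.33 ± 0.06), where 7.12% of all genes were called higher and 6.44% lower. The list medians were 0.24 and 0.18, where the median of all genes was -0.01. Trophoblast markers held 115.7 to 899.6 CPM in Fgf plus and 77.35 to 1015 CPM in Fgf minus wells from mesendoderm, with 1 of 8 tested genes called higher, and their part in the keratin change was not tested.

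**Figure D4:**
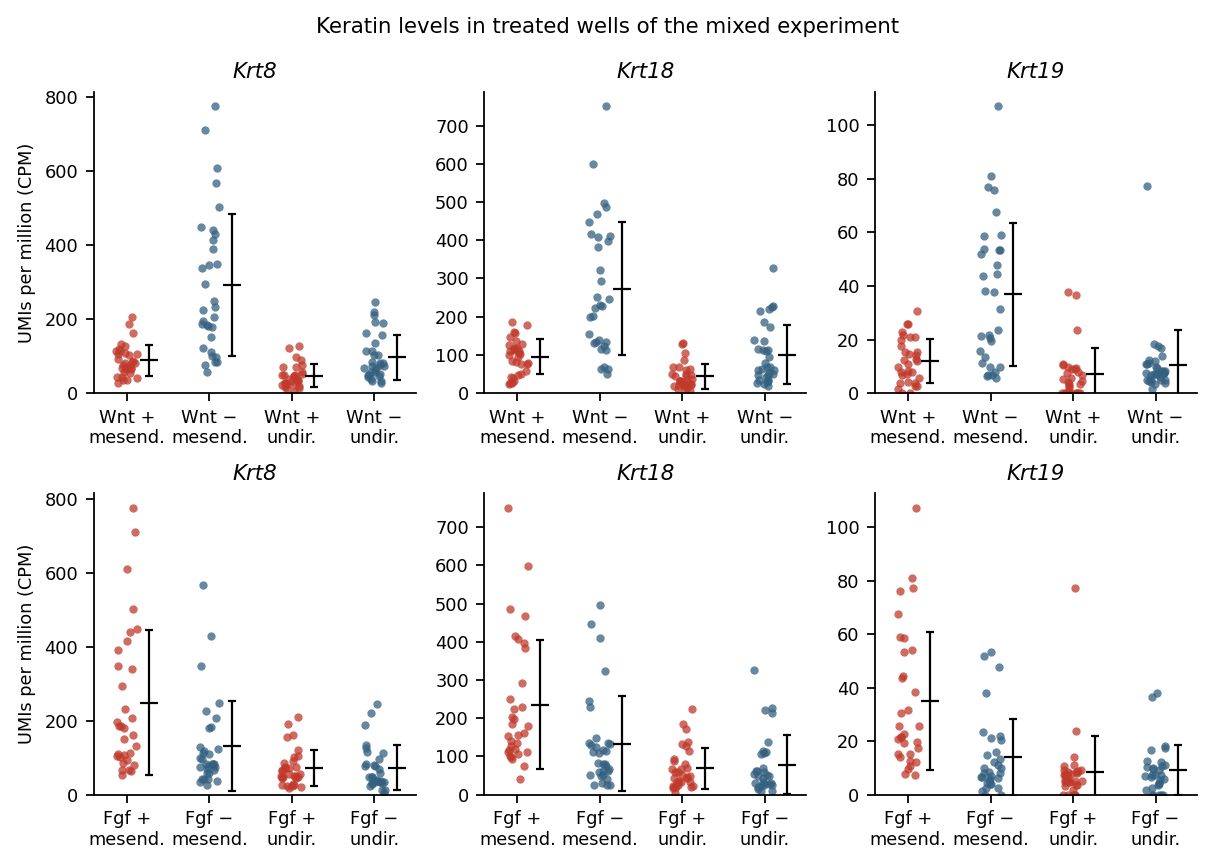
Level (CPM) of Krt8, Krt18 and Krt19 in treated wells of the mixed experiment by Wnt (upper row) and Fgf (lower row), for the mesendoderm (mesend.) and undirected (undir.) starts; points are wells, plus in red and minus in blue, and bars are mean ± SD, with the axis ending at 0. Wnt plus wells reach at most 206.7 for Krt8 from mesendoderm, while Fgf plus wells reach 775.9 from mesendoderm and 209.8 from undirected cells.

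Krt19 changed with RA in opposite directions from the 2 starts. In mesendoderm-start wells Krt19 had a median of 14.93 CPM with RA plus (0 to 59.03, n = 32), against 16.46 CPM with RA minus (0 to 107.1, n = 32). In undirected-start wells it had a median of 7.465 CPM with RA plus (0 to 77.44, n = 30), against 5.368 CPM with RA minus (0 to 17.64, n = 32). The groups overlapped in both. From undirected cells, the SD of log2(CPM + 5) of Krt19 was 0.811 between wells of the same combination and 0.812 over all treated wells. Its highest mean there, with RA, Bmp and Fgf plus, was 45.74 ± 44.84 CPM (SD, n = 2). The log2 change was -0.59 ± 0.17 (SE; edgeR, adjusted p = 0.00345; 30% of genes called) from mesendoderm and 0.85 ± 0.32 (adjusted p = 0.0301; 34.3% called) from undirected cells, and the difference between starts was -1.44 ± 0.36 (adjusted p = 0.00622; 5.68% called). Krt8 fell by 0.50 ± 0.14 on the log2 scale with RA from mesendoderm (adjusted p = 0.00304), and DESeq2 called neither it (adjusted p = 0.142) nor Krt19 (adjusted p = 0.182) there. With products of signals in the model the Krt19 change from mesendoderm was -0.35 and was not called (adjusted p = 0.108). Tgfb called no member from either start in edgeR or DESeq2, with 2 of 4 tests from mesendoderm and 0 of 4 from undirected cells at an unadjusted p under 0.05, where 6.96% and 4.14% of genes were called. Without the filter on low counts, Tgfb called Krt18 (-0.30, adjusted p = 1.7e-06) and Krt19 (-0.37, adjusted p = 0.0104) from mesendoderm and Krt8 (-0.32, adjusted p = 0.00182) from undirected cells. These genes had passed the filter. Dropping it newly called 23 of the member results compared over all experiments, so such calls were not particular to Tgfb.

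Signal pairs acted on the keratins from the mesendoderm start, with 4 of 80 member tests called over both starts, where 0.506% of all gene tests of pairs were. Krt8 averaged 91.03 ± 44.38 CPM with RA plus and Wnt plus, 195.8 ± 97.92 with RA plus and Wnt minus, 85.71 ± 42.1 with RA minus and Wnt plus and 387.8 ± 217.5 with both minus (SD, n = 16 each). Krt18 averaged 108.9 ± 41.2, 224.2 ± 134.2, 81.56 ± 46.64 and 322.6 ± 200.2 CPM in the same groups (SD, n = 16 each). The Wnt decrease was smaller with RA plus, by a log2 difference of 1.07 ± 0.19 (SE) for Krt8 (edgeR, adjusted p = 3.83e-05) and 1.04 ± 0.21 for Krt18 (adjusted p = 0.000315), where 2.5% of genes were called. With Tgfb, Krt8 averaged 101.5 ± 50.19 CPM with Wnt plus and Tgfb plus, 75.29 ± 29.53 with Wnt plus and Tgfb minus, 235.8 ± 168.2 with Wnt minus and Tgfb plus and 347.8 ± 203.9 with both minus (SD, n = 16 each). The Wnt decrease was smaller with Tgfb plus for Krt8 (0.96 ± 0.19, adjusted p = 0.00226) and Krt19 (1.26 ± 0.30, adjusted p = 0.0152), where 0.5% of genes were called, and DESeq2 lost the Krt19 call (adjusted p = 0.0904). The highest mean of Krt8 was 743.2 ± 46.18 CPM from mesendoderm with Bmp and Fgf plus and RA, Wnt and Tgfb minus. From undirected cells edgeR called 0 of 40 pair tests, against 0.425% over all genes, while DESeq2 called 1 and 14 had an unadjusted p under 0.05.

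Between sorted bulk libraries, Krt19 was higher in Foxa2GFPplus cells than in both other groups. In comparisons with Tdgf1GFPplus, the reporter and the sorted fraction differ together and cannot be told apart. Foxa2GFPplus replicate 1 stood apart from replicates 3 and 4, with 77.5, 499 and 428 CPM of trophoblast markers and 221, 510 and 497 CPM of definitive endoderm markers in the 3 libraries, and the part of this in the keratin differences was not tested. In reads scaled to 1000000 per library (CPM), the 3 Foxa2GFPplus libraries held 78, 103 and 118 CPM of Krt19, against 30.3 and 25.1 in the 2 Tdgf1GFPplus libraries and 26.2 and 18.2 in the 2 Foxa2GFPminus libraries. Every Foxa2GFPplus library was above every other sorted library, which was true of 24.5% of 13654 genes tested. Against Foxa2GFPminus the log2 difference was 1.61 ± 0.29 (SE; edgeR, adjusted p = 0.0164; 2.39% of 13654 genes called), and against Tdgf1GFPplus it was 1.30 ± 0.28 (adjusted p = 0.0157; 10.2% called). The first call was lost without Foxa2GFPminus replicate 1 (adjusted p = 0.0857) or replicate 2 (adjusted p = 0.233), and the second without Tdgf1GFPplus replicate 1 (adjusted p = 0.144) or replicate 2 (adjusted p = 0.113). Without Foxa2GFPplus replicate 1 the differences were 1.60 over Foxa2GFPminus (adjusted p = 0.00057) and 1.30 over Tdgf1GFPplus (adjusted p = 0.00138). That fit called 2909 genes in place of 327 over Foxa2GFPminus and 4134 in place of 1397 over Tdgf1GFPplus. With a replicate block the difference over Tdgf1GFPplus was 1.23 and was not called.

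Krt7 was highest in Tdgf1GFPplus cells. It held 9.68, 7.19 and 9.89 CPM in Foxa2GFPplus libraries, 22.5 and 16.5 in Tdgf1GFPplus libraries and 2.75 and 4.32 in Foxa2GFPminus libraries, with no overlap between the groups. Every Tdgf1GFPplus library was above every other sorted library for 5.32% of genes. The difference of Foxa2GFPplus over Tdgf1GFPplus was -1.62 ± 0.43 (SE; edgeR, adjusted p = 0.0377), and was not called without Foxa2GFPplus replicate 3 (adjusted p = 0.155) or 4 (0.0888), without Tdgf1GFPplus replicate 1 (0.205) or 2 (0.175), or with scaling by total reads alone (0.122). Without Foxa2GFPplus replicate 1 it was -1.87 (adjusted p = 0.00385), where 4134 genes were called in place of 1397. With a replicate block it was -1.08 and was not called. Krt8 held 33.4, 61.4 and 48.9 CPM in Foxa2GFPplus, 35.6 and 47 in Tdgf1GFPplus and 12 and 13.8 in Foxa2GFPminus libraries. Krt18 held 139, 105 and 119 in Foxa2GFPplus, 125 and 175 in Tdgf1GFPplus and 47.1 and 51 in Foxa2GFPminus libraries. Like Krt7, both genes were lower in every Foxa2GFPminus library than in every other sorted library, which was true of 9.68% of genes.

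Tdgf1GFPplus against Foxa2GFPminus called 0 of 4 members and 0% of genes in edgeR, although 3 of the 4 members had an unadjusted p under 0.05 and were called in DESeq2 (adjusted p = 0.0216 each). Their log2 differences were 2.40 ± 0.54 (SE) for Krt7, 1.68 ± 0.37 for Krt8 and 1.63 ± 0.40 for Krt18. Without Foxa2GFPplus replicate 1, 8 of the 12 member tests were called in edgeR in place of 3. This added Krt8 against Foxa2GFPminus (adjusted p = 0.00787) and Krt18 against Tdgf1GFPplus (adjusted p = 0.00444). It also added Krt7 (0.0245), Krt8 (0.0206) and Krt18 (0.012) for Tdgf1GFPplus over Foxa2GFPminus. Calls over all genes rose as well in that fit. They were 2909 in place of 327 for Foxa2GFPplus over Foxa2GFPminus and 4134 in place of 1397 for Foxa2GFPplus over Tdgf1GFPplus. For Tdgf1GFPplus over Foxa2GFPminus they were 260 in place of 0. Scaling by total reads alone shifted the median of all genes by 0.56 for Foxa2GFPplus over Foxa2GFPminus and by 0.54 for Foxa2GFPplus over Tdgf1GFPplus, and the Krt8 difference over Tdgf1GFPplus was then 0.22 in place of -0.39.

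No keratin was called between transfected and untransfected bulk libraries. Krt8 held 5.85 and 9.01 CPM in Barcodelet72h, 6.81 and 6.21 in Barcodelet24h and 7.66 and 8.57 in Untransfected libraries. Krt18 held 32.2 and 20.9 in Barcodelet72h, 30.8 and 15.2 in Barcodelet24h and 23.6 and 23.4 in Untransfected libraries. Krt19 held 22.3 and 21.9 CPM in Barcodelet72h, 14.1 and 15.5 in Barcodelet24h and 22.8 and 15.8 in Untransfected libraries. Krt7 held 8.14 and 8.28 CPM in Barcodelet72h, 11.3 and 5.86 in Barcodelet24h and 5.24 and 8.18 in Untransfected libraries. Groups did not overlap for Krt8 in Barcodelet24h below Untransfected, as for 17% of 11631 genes, nor for Krt19 in Barcodelet72h above Barcodelet24h, as for 9.97% of genes, with Krt19 also lower in both Barcodelet24h than in both Untransfected libraries. Krt18 and Krt7 overlapped between all groups. Of 12 member tests 0 were called in edgeR and 0 in DESeq2, with 1 at an unadjusted p under 0.05, Krt19 in Barcodelet72h over Barcodelet24h (0.66 ± 0.27, SE), where 0.0258% of genes were called for Barcodelet72h and 0.0344% for Barcodelet24h over Untransfected, and 0% for Barcodelet72h over Barcodelet24h. The SEs of the 12 differences ran from 0.26 to 0.39 on the log2 scale.

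**Figure D5:**
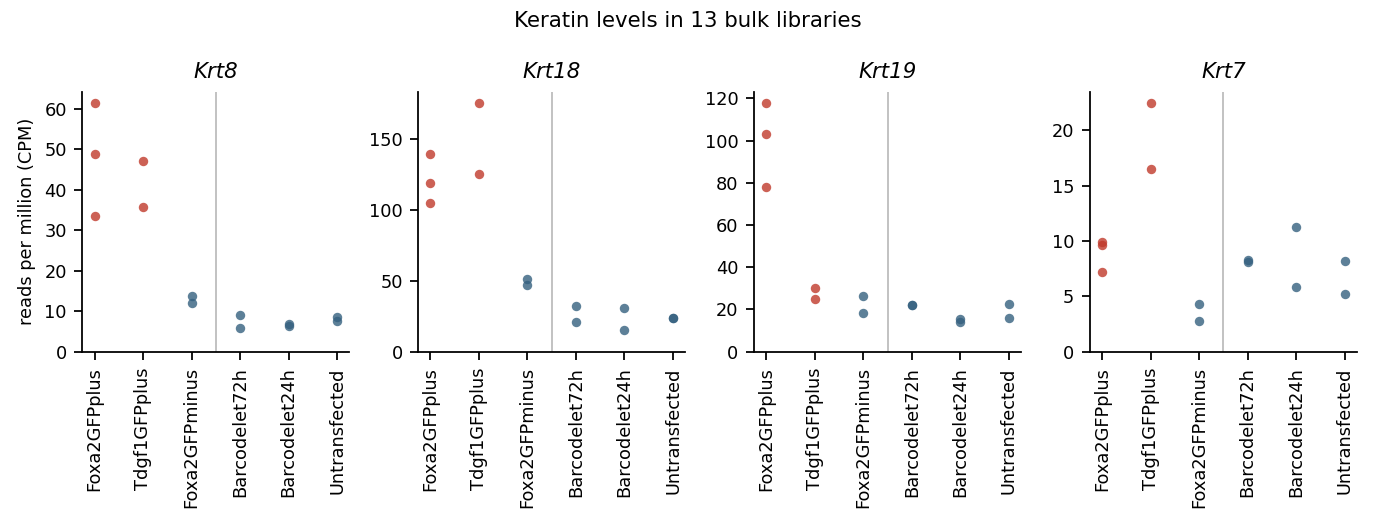
Level (CPM, reads) of each keratin in the 13 bulk libraries; points are libraries, the sorted groups stand left of the grey line and the transfection groups right of it. Krt19 is highest in Foxa2GFPplus (78 to 118) and Krt7 in Tdgf1GFPplus (16.5 and 22.5), and Krt8 and Krt18 are higher in both than in Foxa2GFPminus.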

How the data were processed

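The values the authors deposited are counts with no scaling: UMIs per gene and cell for the 10x Chromium libraries, and reads per gene for the bulk libraries, which the labels' protocols describe as Lexogen QuantSeq 3'. HTSeq 0.9.1, STAR 2.5.2b, Cell Ranger 1.3.1 and the build mm10 appear in the submitters' processing notes without the step each served. Cells were kept where the authors' deposited assignments mark them as passed, and no doublet caller was run. No per-sample column of another series was found (0).

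UMI counts were summed per well, wells with at least 5 cells were kept, and each signal was coded 0.5 for plus and -0.5 for minus. Sums were tested in R 4.3.3 with edgeR 4.0.16 (TMM factors, filterByExpr, quasi-likelihood test, 2-sided), with Benjamini-Hochberg adjustment over all genes of a contrast, and a gene was called at an adjusted p under 0.05. A log2 change of a signal is plus over minus. Effects of single signals came from an additive model and pairs from a model with all products of 2 signals. Mixed wells of both starts shared 1 fit. Bulk libraries of 2899646 to 14874469 reads had 1 fit for the sorted and 1 for the transfected set. Alternatives were RLE factors, total counts alone, no filter, DESeq2 1.42.0, at least 10 cells, products in the model, a replicate block, 1 fit of all bulk libraries and leaving out each library. The scripts were tested on simulated counts with known changes.

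The labels do not say that wells or libraries came from separate cultures, so p-values measure the spread between these samples, which may be technical. In the germ layer experiment each combination had 1 population, so its spread came from the residuals of the model. Cell shares used cells thinned to 5000 UMIs. The members and gene lists were chosen with earlier results of these data known. Genes named beside the members were taken by smallest adjusted p in each list, or, for likeness, as the 5 highest Pearson correlations of log2(CPM + 5), of which 1 is not reported here. Some genes, such as Gata3 and Hand1, sit on more than 1 list.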

Additional observations from a re-analysis of the deposited data

Results flagged for a closer look

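In the mixed experiment, 4 changes of a member with a signal differed between the mesendoderm and the undirected start by the test of the difference itself. They are among 20 such tests of the members, and each adjusted p is from edgeR over all genes. Krt19 changed with RA by -0.59 ± 0.17 (log2, SE) from mesendoderm and by 0.85 ± 0.32 from undirected cells, a difference of -1.44 (adjusted p = 0.00622). The change from mesendoderm was not called in DESeq2 (-0.39, adjusted p = 0.182) or with products of signals in the model (-0.35, adjusted p = 0.108). The Fgf change from mesendoderm exceeded that from undirected cells by 1.55 ± 0.37 for Krt19 (adjusted p = 0.00985), by 1.17 ± 0.25 for Krt18 (adjusted p = 0.00281) and by 1.05 ± 0.25 for Krt8 (adjusted p = 0.00751). A check for populations far from the others of their group flagged 0 of 20 groups of 4 to 10. It covered the germ layer groups of the called signal pairs and the control wells of the mixed experiment. The treated mixed wells behind the 4 changes above were not checked. Among them, Krt19 in undirected-start RA plus wells reached 77.44 CPM, against a median of 7.465 CPM.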

How the results depend on the processing

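RLE factors left all 147 tested member results on the same side of the threshold with the same direction, and total UMIs alone left 120 of 123, with 3 newly called. The counts of called members moved by over 1.5 times as follows. With products of signals in the model, germ layer effects gave 14 calls in place of 6. With DESeq2, germ layer pairs gave 1 in place of 3 and sorted bulk libraries 7 in place of 3. With at least 10 cells per well, which leaves fewer wells, mesendoderm effects gave 3 in place of 5 and mesendoderm pairs 0 in place of 6. With no filter on low counts, mesendoderm pairs gave 15, mixed effects by start 10 in place of 4, treated against control wells 3 in place of 0, mixed pairs 28 in place of 4 and sorted libraries 7. Among the member results compared, all of genes that had passed the filter, dropping it newly called 23. One fit of all bulk libraries gave 6 calls in the sort, and leaving out 1 library in turn gave 1 to 8. The cause was not tested where none is named.

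Directions that turned belonged to small changes, none of them called. With DESeq2, Krt7 under germ layer Tgfb was 0.041 (0.073 with products), Krt19 was 0.18 for Bmp by start and 0.034 for treated against control mesendoderm-start wells, and Krt18 was 0.052 for RA from mesendoderm (0.078 with products). With products, Krt18 was 0.051 for Tgfb from undirected cells. Krt8 in Foxa2GFPplus over Tdgf1GFPplus was 0.22 with total reads alone and ran from -0.71 to 0.053 with 1 library left out. With 1 library left out, Barcodelet24h over Untransfected ran from -0.17 to 0.79 for Krt7 and from -0.60 to 0.41 for Krt18, which was also -0.0031 with total reads alone and -0.0007 with no filter. Barcodelet72h over Untransfected then ran from -0.045 to 0.53 for Krt18 and from -0.39 to 0.27 for Krt8, and Barcodelet72h over Barcodelet24h from -0.38 to 0.55 for Krt7 (0.0042 in the fit of all bulk libraries), from -0.13 to 0.88 for Krt18 and from -0.11 to 0.56 for Krt8.

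No paired analysis was possible for the germ layer and mesendoderm experiments, because the first has 1 population per combination and the design table of the second names no replicates. In the mixed design the third barcodelet marks 2 sets of wells within each start, 36 and 36 from mesendoderm and 35 and 35 from undirected cells, with each combination at most once per set. A replicate block by these sets, chosen after seeing the data, left all 80 member results with the same direction and on the same side of the threshold, with 17 calls of single signals, 7 of the start, 4 of the difference between starts and 4 of pairs. Bulk libraries with the same number deviated with correlations from -0.10 to 0.18 in the sort and from -0.25 to 0.12 in the transfection set. In a group of 2 libraries the deviations mirror each other, so these values cannot decide whether a number marks a shared batch. The replicate block gave 5 calls in the sort in place of 3: it did not call Krt19 (1.23, adjusted p = 0.101) and Krt7 (-1.08, adjusted p = 0.597) in Foxa2GFPplus over Tdgf1GFPplus, and it added Krt18 in Foxa2GFPplus over Foxa2GFPminus (adjusted p = 0.00787) and Krt7, Krt8 and Krt18 in Tdgf1GFPplus over Foxa2GFPminus. It gave 0 in the transfection set, where it turned Krt18 in Barcodelet24h over Untransfected to -0.0583. Crossing the untransfected numbers in the block, an alternative chosen after seeing the data, called 0 members and 8 and 5 genes in place of 4 and 3, with Krt18 in Barcodelet24h over Untransfected at -0.0466 and Krt7 in Barcodelet72h over Barcodelet24h at 0.0323.

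Counts over all genes moved too. Germ layer Fgf called 1331 with products in place of 842 and Tgfb 1132 in place of 745, and with DESeq2 Wnt with Bmp called 220 in place of 442 and Tgfb with Bmp 177 in place of 344. Mesendoderm Wnt called 595 to 2630 in place of 921, Bmp 244 to 1442 in place of 682, RA 257 to 1379 in place of 510, and Wnt with Bmp 32 to 451 in place of 320, lowest with at least 10 cells and highest with no filter. With no filter, the Fgf difference between starts called 281 in place of 129 and that of Bmp 93 in place of 17. Foxa2GFPplus over Foxa2GFPminus called 44 to 2909 in place of 327, over Tdgf1GFPplus 230 to 4134 in place of 1397, and Tdgf1GFPplus over Foxa2GFPminus 0 to 260 in place of 0. The transfection contrasts called 2 to 14, 0 to 43 and 0 to 16 in place of 4, 3 and 0. With total counts alone, the share of calls that were higher became 29.3% in place of 50.4% for germ layer Wnt, 69.5% in place of 54.4% for Tgfb with Bmp, 64.5% in place of 45.9% for mesendoderm Bmp, 19.2% in place of 48.3% for mixed Wnt and 73.3% in place of 52.5% for mixed Fgf from mesendoderm, 41.1% in place of 55.4% for the start, and 82.9% in place of 36.7% for Foxa2GFPplus over Foxa2GFPminus and 83.2% in place of 47% over Tdgf1GFPplus. Thinning to 8000 UMIs put Krt8 in 74.25% of germ layer cells in place of 64.52%. Depth limits Krt7 most, at 0 UMIs in 210 of 300 mesendoderm wells.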

Other observations

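The make-up of the Krt8 and Krt18 pair varied in the mixed experiment, in wells with at least 50 UMIs of the 2 genes. Krt8, the type II partner, made up 46.3% ± 6.856 (SD, n = 30) of the pair's UMIs in RA plus wells from mesendoderm and 54.13% ± 6.05 (SD, n = 29) in RA minus wells. From undirected cells it made up 47.45% ± 8.571 (SD, n = 18) in Bmp plus wells and 56.85% ± 6.649 (SD, n = 13) in Bmp minus wells. Single wells overlapped in both comparisons, and neither share was tested. In single cells thinned to 5000 UMIs, 57.58% of Krt8-positive cells from the mesendoderm start also held Krt18, against 39.95% from the undirected start. Krt18 was also found in more cells from the mesendoderm start at large: it was in 21.19% of mesendoderm-start and 16.28% of undirected-start cells without Krt8, and in 33.11% and 21.58% of all cells, in the same order. These shares pool wells with different signals.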
